A study of Homo sapiens with 12 samples.

Results

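The nuclear genes of the mitochondrial respiratory chain were examined for H3K4me3 at their promoters in BON1, an established line from a human pancreatic neuroendocrine tumor. The members were the protein-coding nuclear genes whose symbols start with NDUFA, NDUFB, NDUFC, NDUFS, NDUFV, SDHA to SDHD, UQCR, COX4 to COX8 or ATP5, without a hyphen, which gave 100 of the 20136 protein-coding genes of the annotation. They comprised 39 subunits and 8 assembly factors of complex I, 4 subunits and 4 assembly factors of complex II, 9 genes of complex III, 17 of complex IV and 19 of complex V. The rule reads the symbols alone. NDUFA4 was kept with complex I by its symbol, although its protein is known to join complex IV.

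The assay was CUT&RUN, which cuts chromatin with a nuclease tethered to an antibody, here against H3K4me3, a histone modification typical of active promoters, and sequences the short pieces that come free. Empty-vector control cells (BON1/TGL/pQ) were set against BON1/TGL/HA-Bcl-xL cells, which overexpress an HA-tagged form of Bcl-xL, an anti-apoptotic protein of the outer mitochondrial membrane, to ask whether Bcl-xL alters this mark. Both lines grew in medium with puromycin, 500000 cells went into each condition, and an IgG reaction measured the background. For H3K4me3, peak lists of 3 control libraries (replicates 1 to 3) and of 2 HA-Bcl-xL libraries (replicates 2 and 3) were used, and for IgG those of 6 libraries, 3 from each line. The labels do not say that the replicates came from separate cultures, so every spread and p-value below measures the spread between these libraries, which may be technical.

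The respiratory chain passes electrons from NADH through complex I, or from succinate through complex II, to ubiquinone, complex III, cytochrome c and complex IV, and complex V uses the resulting proton gradient to make ATP. Most subunits are encoded in the nucleus, and their promoters are known for sites of NRF1, of the ETS factor GABPA and of YY1. Several complex IV subunits exist in a widely used form and in a form restricted to tissues such as heart, skeletal muscle, lung or testis.

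The H3K4me3 lists of the control libraries held 17711, 12159 and 10247 peaks, and the HA-Bcl-xL lists 16379 and 15497. Values by library are given throughout for control replicates 1 to 3 and then for HA-Bcl-xL replicates 2 and 3. The IgG lists held 1674 to 2113 peaks in control and 244 to 268 in HA-Bcl-xL cells. The median H3K4me3 peak rested on 9 to 12 fragments at its summit and the median IgG peak on 3 to 5, so a promoter without a peak was one without a call at this depth, not one shown to lack the mark. Of 8 neuroendocrine marker genes, 4 (CHGB, NEUROD1, SCG2 and SCG3) had a promoter peak in all 5 H3K4me3 libraries, CHGA had one in 1 library, SYP in 2, and ENO2 and INSM1 in none. The epithelial markers KRT8, KRT18 and CDH1 had one in all 5 libraries and EPCAM in 4, while the listed fibroblast (3 of 3), leukocyte (3 of 3) and endothelial (CDH5) genes had none in any.

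The sequences below are the promoter with the highest mean rank and 3 that were chosen because they hold a motif found in a minority of members. Each holds the 120 bases before and 30 bases from the start of the transcript tagged canonical in the annotation, 5′ to 3′ on the gene's strand, from GRCh37 (hg19). Capitals mark matches on either strand to the 6 motifs searched, which were GCATGCGC for NRF1, CCGGAAGT for ETS factors, AAGATGGCG for YY1, GGGCGG for the GC box, CCAAT for the box of that name and TATAAA for the TATA box. NDUFAF2 (chr5:60240912-60241061, plus strand) had the highest mean rank of all members. NDUFB8 (chr10:102289599-102289748, minus strand), NDUFA13 (chr19:19626914-19627063, plus strand) and NDUFAF5 (chr20:13765554-13765703, plus strand) were the highest ranked members with a YY1, an ETS and an NRF1 match, among those with a peak in all 5 libraries.
NDUFAF2: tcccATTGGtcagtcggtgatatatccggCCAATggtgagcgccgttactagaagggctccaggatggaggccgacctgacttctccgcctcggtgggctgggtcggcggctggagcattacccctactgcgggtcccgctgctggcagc
NDUFB8: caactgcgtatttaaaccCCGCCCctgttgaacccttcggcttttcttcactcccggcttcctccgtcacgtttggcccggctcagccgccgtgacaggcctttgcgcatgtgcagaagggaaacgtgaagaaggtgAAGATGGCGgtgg
NDUFA13: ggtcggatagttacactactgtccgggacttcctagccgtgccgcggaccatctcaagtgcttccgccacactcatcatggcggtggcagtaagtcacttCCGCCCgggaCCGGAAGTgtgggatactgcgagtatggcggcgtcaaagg
NDUFAF5: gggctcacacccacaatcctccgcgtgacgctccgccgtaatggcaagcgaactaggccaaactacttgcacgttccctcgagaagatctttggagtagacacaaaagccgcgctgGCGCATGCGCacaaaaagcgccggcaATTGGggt
In NDUFAF2 the capitals are a pair of CCAAT boxes beginning 116 and 91 bases before the start. The NDUFB8 stretch holds a GC box and, beginning 17 bases after the start, the YY1 letters. NDUFA13 carries a GC box and, 10 bases before the start, the ETS letters. In NDUFAF5 NRF1 matches on opposite strands overlap and begin 4 and 2 bases before the start, and a CCAAT box follows 22 bases after it.

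Most respiratory chain promoters were marked in every library. A promoter was first taken as 1 kb on either side of the gene's most 5′ end in the annotation. A peak lay there for 75, 70 and 66 of the 100 members in control replicates 1 to 3, where 40.4, 32.4 and 28.2% of all protein-coding genes had one. It was 74 and 73 members in the HA-Bcl-xL libraries, against 38.1 and 36.5% of all genes. In the IgG lists 0 members had such a peak in any of the 6 libraries, and 0.253, 0.223 and 0.243% of all genes did in control and 0.0199, 0.0397 and 0.00497% in HA-Bcl-xL cells. The peak was present in all 5 H3K4me3 libraries for 58 members (21.3% of all genes) and in none for 19 (51.8% of all genes). The remaining 23 members (26.9% of all genes) had a peak in 1 to 4 libraries.

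By complex, the number of promoters marked in all 5 libraries at the most 5′ end was 25 of 39 complex I subunits, 5 of 8 complex I assembly factors, 3 of 4 complex II subunits, 2 of 4 complex II assembly factors, 4 of 9 complex III genes, 7 of 17 complex IV genes and 12 of 19 complex V genes. The genes without a peak in any library were 5, 2, 0, 0, 2, 7 and 3 in the same order. These groups are small, and the differences between complexes were not tested.

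**Figure D1:**
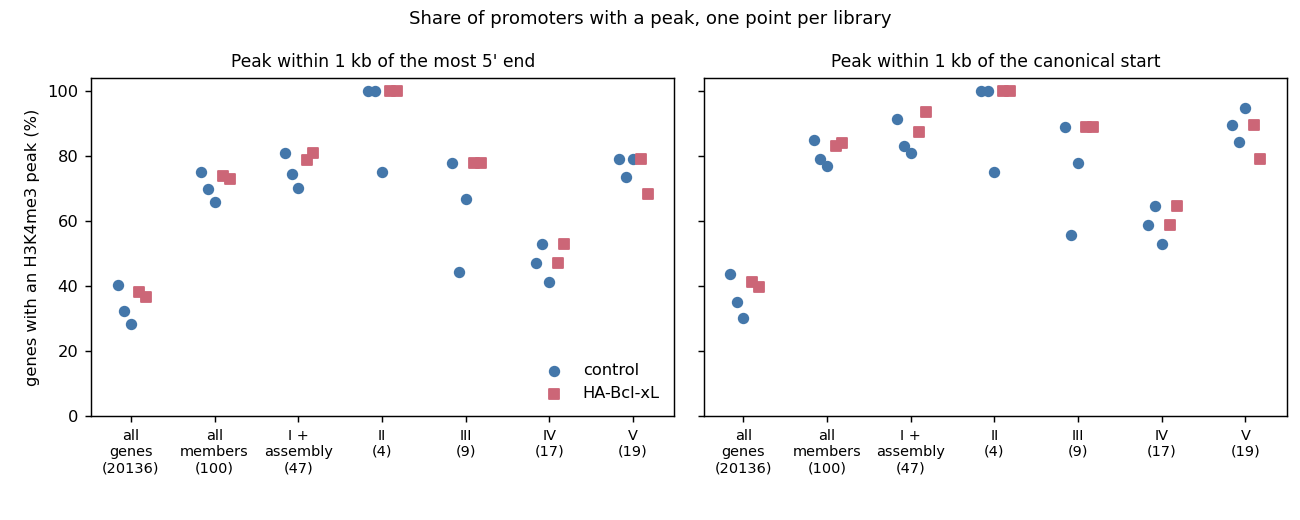
Percent of genes with an H3K4me3 peak no more than 1 kb from the most 5′ end (left) and from the canonical start (right), one point per library (circles control, squares HA-Bcl-xL), for all 20136 protein-coding genes, all 100 members and the members of each complex, with the number of genes in brackets. The 4 complex II assembly factors enter only under all members. All members lay at 66 to 75% on the left and 77 to 85% on the right, above all genes in every library, and complex IV lay lowest among the complexes in most libraries.

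Where the promoter was taken to be changed which members counted as unmarked. The canonical start lay over 1 kb downstream of the most 5′ end for 17 members, against 16.4% of all genes, and for 12 of the 19 members without a peak. Around the canonical start, 85, 79 and 77 members had a peak in the control libraries and 83 and 84 in the HA-Bcl-xL libraries, where 43.8, 35.1, 30.3, 41.3 and 39.6% of all genes did. It was present in all 5 libraries for 65 members (22.9% of all genes), in none for 9 (48.0% of all genes) and in 1 to 4 for 26 (29.1% of all genes). Within 2.5 kb of the most 5′ end, 60 members (25.6% of all genes) had a peak in all 5 libraries and 15 (46.5% of all genes) in none. NDUFV3, a complex I subunit of the NADH module, went the other way. It had a peak in all 5 libraries at the most 5′ end, at percentiles of 80.0 to 92.7 within its lists, and in 3 libraries at the canonical start 13665 bp downstream, at 32.5 to 61.5. The canonical start was added after the values at the most 5′ end had been seen.

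Of the 19 members without a peak at the most 5′ end, 10 had one at the canonical start. Those with a peak there in all 5 libraries included NDUFAF1, UQCRC1, COX7A2, COX7A2L and ATP5MJ, and the peak was present in 4 libraries for NDUFAF3, NDUFB2, NDUFV1 and ATP5MC2. Among them NDUFAF1, which helps to assemble the membrane arm of complex I, had its canonical start 6907 bp downstream. There its peak ranked at the 99.1, 99.3 and 98.4th percentile of the control lists and at the 95.0 and 98.1th percentile of the HA-Bcl-xL lists, so it was among the strongest of all members. UQCRC1, a core protein of complex III (1330 bp), ranked at 90.6, 91.5 and 81.4 in control and 95.2 and 62.9 in HA-Bcl-xL. ATP5MJ, a small membrane subunit of complex V (6740 bp), had a low peak, with 6, 8 and 6 fragments at the summit in control and 7 and 8 in HA-Bcl-xL. COX7A2L, which takes part in joining complexes III and IV, had its canonical start 63871 bp downstream. ATP5MC2, NDUFAF3, NDUFV1 and UQCRC1 also had a peak within 2.5 kb of the most 5′ end.

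**Figure D2:**
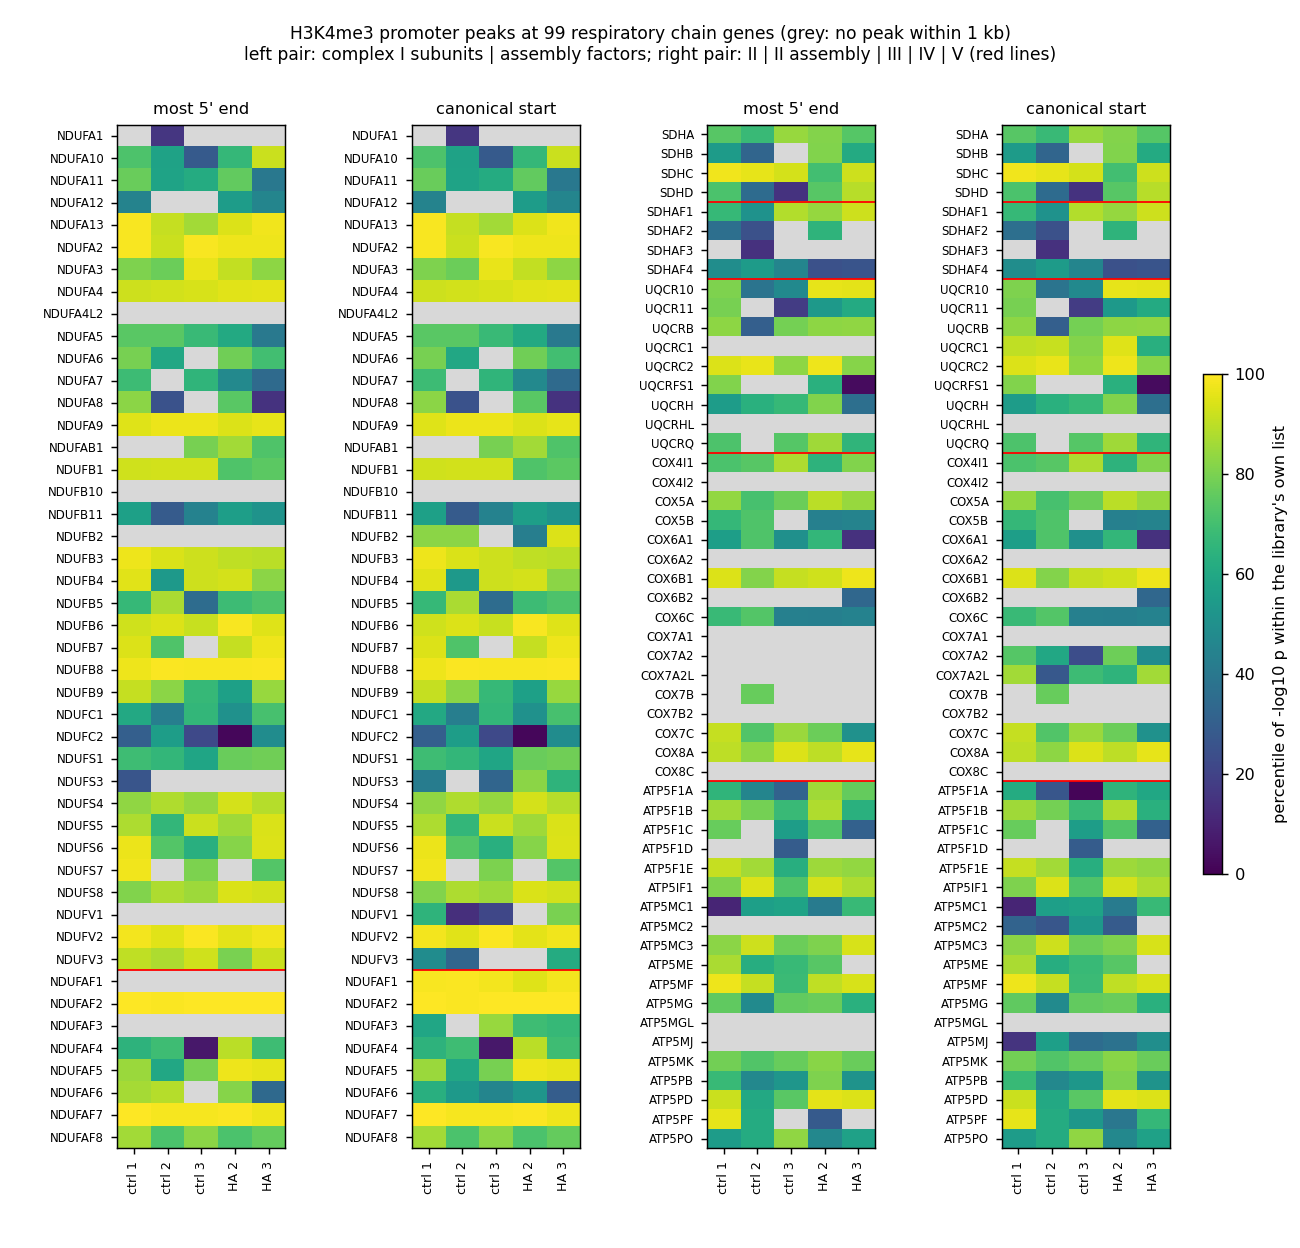
Each row is 1 of 99 members and each column 1 of the 5 H3K4me3 libraries (ctrl, control; HA, HA-Bcl-xL); the colour is the percentile of the strongest promoter peak's −log10 p within its own list (100 is the strongest), and grey is no peak within 1 kb. NDUFAF2, NDUFAF7 and NDUFB8 are bright in every library, and NDUFAF1, UQCRC1, COX7A2, COX7A2L and ATP5MJ are grey at the most 5′ end and coloured in all 5 libraries at the canonical start.

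Strength was read as the rank of the authors' −log10 p within each list, since values of single peaks cannot be compared between lists. The strongest peak within 1 kb was ranked in each library, so the ranks of a gene can come from different peaks. The median member peak at the most 5′ end stood at the 81.2, 72.6 and 77.1th percentile in control and the 81.3 and 78.4th in HA-Bcl-xL. For all genes with a promoter peak the medians were 68.4, 65.1 and 64.1 in control and 68.0 and 67.5 in HA-Bcl-xL, so the members' median was higher in 5 of 5 libraries. Of the 58 members with a peak in all 5 libraries, 11 ranked higher in both HA-Bcl-xL lists than in every control list (12.3% of the 4289 genes with such a peak) and 5 ranked lower (6.99%). These ranks come from lists of unequal length, and the difference in rank between the lines was not tested for any gene.

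In complex I the highest ranks belonged to NDUFB8, NDUFV2 and NDUFA2. NDUFB8, an accessory subunit of the membrane arm, stood at 97.6, 99.6 and 99.1 in control and 98.9 and 99.6 in HA-Bcl-xL, with 33, 38, 30, 35 and 44 fragments at its summit. NDUFV2, which carries an iron-sulfur cluster of the NADH module, had a mean rank of 97.3, and NDUFA2, an accessory subunit of the matrix arm, of 96.9. The catalytic core subunits of the complex did not all rank high. NDUFS1, NDUFS8 and NDUFV2 had a peak at the most 5′ end in all 5 libraries. NDUFS3 had one in control replicate 1 alone at the most 5′ end, but in 4 libraries (all but control replicate 2) at its canonical start 13738 bp downstream. NDUFS7, which holds the iron-sulfur cluster next to ubiquinone, had one in control replicates 1 and 3 and HA-Bcl-xL replicate 3, at the 98.0, 80.4 and 73.1th percentile. NDUFV1, the NADH-binding subunit, had none at its most 5′ end and, 1283 bp downstream, 10, 5 and 5 fragments in control, 11 in HA-Bcl-xL replicate 3 and no peak in HA-Bcl-xL replicate 2.

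The complex I assembly factors included the member with the strongest peak by mean rank, NDUFAF2. It stood at 99.9, 99.6 and 99.8 in control and 99.7 and 99.8 in HA-Bcl-xL, with 58, 36, 39, 46 and 63 fragments. NDUFAF7, a protein methyltransferase, had a mean rank of 98.7, and NDUFAF5, a hydroxylase of NDUFS7, of 83.7. NDUFAF5 stood at 85.1, 59.8 and 79.6 in control and at 97.5 and 96.2 in HA-Bcl-xL, and was among the 11 members ranked higher in both HA-Bcl-xL lists. NDUFAF4 varied most between libraries in this group, from the 6.29th percentile in control replicate 3 to the 89.7th in HA-Bcl-xL replicate 2.

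In complex II, SDHC, a membrane anchor, ranked highest, at 97.7, 96.1 and 93.7 in control and 69.9 and 92.3 in HA-Bcl-xL. SDHA, the flavoprotein that oxidizes succinate, stood at 74.2, 67.8 and 84.5 in control and 81.4 and 73.6 in HA-Bcl-xL, which overlapped, while both HA-Bcl-xL values of SDHC lay below its control values. The iron-sulfur subunit gene SDHB lacked a peak in control replicate 3 alone. Of the assembly factors, SDHAF1 had a mean rank of 76.6. SDHAF4, which binds flavinated SDHA, stood at 49.2, 55.0 and 45.4 in control and 24.8 and 25.9 in HA-Bcl-xL, on only 7, 6, 6, 5 and 5 fragments. SDHAF3 had a peak in control replicate 2 alone, on 5 fragments, and SDHAF2, which attaches flavin to SDHA, had one in control replicates 1 and 2 and HA-Bcl-xL replicate 2.

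In complex III, UQCRC2, a core protein, led with 94.8, 96.7 and 82.9 in control and 97.6 and 81.7 in HA-Bcl-xL. UQCRB, a subunit at a ubiquinone site, had a mean rank of 71.8. UQCR10, a small subunit, stood at 80.6, 38.5 and 47.4 in control and at 96.4 and 95.8 in HA-Bcl-xL, and was also among those 11. Its summits lay at 19, -419, -26, -6 and -19 bp from the most 5′ end, so control replicate 2 gave a different peak. UQCRFS1, the Rieske iron-sulfur protein, had a peak in control replicate 1 and both HA-Bcl-xL libraries, on 14, 10 and 5 fragments.

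In complex IV, COX6B1, a subunit on the cytochrome c side, stood at 94.6, 81.4 and 91.4 in control and 92.8 and 97.5 in HA-Bcl-xL. COX8A had a mean rank of 90.9 and COX5A of 81.3, and the lines overlapped for COX6B1 and COX8A. COX5A was among the 11 members ranked higher in both HA-Bcl-xL lists. COX5B lacked a peak in control replicate 3 alone, and COX7B had one in control replicate 2 alone, on 13 fragments.

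In complex V, ATP5MF, a membrane subunit, led with 97.4, 91.3 and 68.1 in control and 90.6 and 93.8 in HA-Bcl-xL. These ranks came from different peaks, with summits at -25, 713, 707, 703 and -5 bp from the most 5′ end. ATP5IF1, the inhibitor of ATP hydrolysis by the enzyme, had a mean rank of 85.7. The rotor ring protein is encoded by ATP5MC1, ATP5MC2 and ATP5MC3, which were marked unequally. ATP5MC3 stood at 82.8, 92.2 and 77.4 in control and 80.8 and 94.0 in HA-Bcl-xL, above ATP5MC1 in every library, which stood at 10.5, 56.5, 57.9, 41.6 and 67.4. The ATP5MC1 ranks came from different peaks, with summits at -16, -435, 342, -414 and 33 bp from the most 5′ end. ATP5MC2 had its peaks only at the canonical start 1325 bp downstream, on 6 to 7 fragments in 4 libraries. In the catalytic head, ATP5F1A, ATP5F1B and ATP5F1E had a peak at the most 5′ end in all 5 libraries, ATP5F1C in 4, and ATP5F1D in control replicate 3 alone, on 7 fragments.

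The tissue-restricted isoforms and retrocopies were nearly all without a call, while the widely used form of the same subunit carried one. Of 9 such members, 8 (COX4I2, COX6A2, COX7A1, COX7B2, COX8C, NDUFA4L2, UQCRHL and ATP5MGL) had no peak in any library at either place, and 48.0% of all genes had none at the canonical start. COX6B2 had a peak in HA-Bcl-xL replicate 3 alone, on 5 fragments. Of the other 91 members, 90 had a peak at the canonical start in at least 1 library and 65 in all 5 (22.9% of all genes). The widely used counterparts COX4I1, COX6A1, COX6B1, COX7A2, COX8A, NDUFA4, UQCRH and ATP5MG had a peak at the canonical start in all 5 libraries. COX7B was the exception, with a peak in 1 library.

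The nearest H3K4me3 peak to the canonical start of the unmarked isoforms lay well away from it. It was 11.1 to 11.2 kb from COX7A1, a heart and skeletal muscle form, and 14.6 to 14.7 kb from COX6A2, also a form of heart and skeletal muscle. For COX4I2, which is known from lung, it was 24.7 to 31.5 kb, and for COX8C 13.5 to 14.9 kb. For NDUFA4L2, known as a hypoxia-induced relative of NDUFA4, it was 6.2 to 7.4 kb. UQCRHL lay 26.1 kb from a peak in 4 libraries and 7.3 kb in HA-Bcl-xL replicate 3, ATP5MGL 25.6 to 215.9 kb, and COX7B2 519.7 to 554.0 kb.

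NDUFB10, an accessory subunit of the membrane arm of complex I, was the only other member without a peak at either place. Its nearest peak lay 4.2 to 5.4 kb away in the 5 libraries. Its printed stretch has a GC content of 79.3%.

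To set marked beside unmarked promoters, the same 150 bases are shown for COX7A2 (chr6:75953488-75953637, minus strand) and COX7A1 (chr19:36643320-36643469, minus strand), for NDUFA4 (chr7:10979751-10979900, minus strand) and NDUFA4L2 (chr12:57630858-57631007, minus strand), and for NDUFB10 (chr16:2009419-2009568, plus strand).
COX7A2: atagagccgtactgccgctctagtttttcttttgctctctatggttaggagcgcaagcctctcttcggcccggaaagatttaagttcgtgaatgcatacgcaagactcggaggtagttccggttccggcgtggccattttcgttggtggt
COX7A1: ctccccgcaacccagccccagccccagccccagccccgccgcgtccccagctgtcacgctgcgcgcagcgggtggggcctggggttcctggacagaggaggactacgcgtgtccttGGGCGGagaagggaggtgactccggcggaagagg
NDUFA4: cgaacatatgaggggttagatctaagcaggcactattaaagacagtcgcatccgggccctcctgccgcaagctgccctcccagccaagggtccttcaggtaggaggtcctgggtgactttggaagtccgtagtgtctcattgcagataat
NDUFA4L2: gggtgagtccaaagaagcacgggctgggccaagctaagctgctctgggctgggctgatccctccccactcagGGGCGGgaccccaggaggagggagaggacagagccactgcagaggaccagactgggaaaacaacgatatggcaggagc
NDUFB10: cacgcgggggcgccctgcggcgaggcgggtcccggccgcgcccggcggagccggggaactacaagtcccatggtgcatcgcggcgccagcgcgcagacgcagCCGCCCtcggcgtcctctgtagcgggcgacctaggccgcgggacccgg
The only capitals in these stretches are a GC box in each of COX7A1, NDUFA4L2 and NDUFB10, the unmarked genes. Over all members the split differed. In 300 bases around the canonical start, GC boxes were found in 58.5% of the 65 members marked in all 5 libraries. They were found in 76.9% of the 26 marked in 1 to 4 and in 44.4% of the 9 unmarked. CpG content differed between the forms. The ratio of observed to expected CpG in 300 bases around the canonical start was 1.10 for COX7A2 and 0.758 for COX7A1, and 0.523 for NDUFA4 and 0.194 for NDUFA4L2. It was higher in the widely used form in every pair except COX6B1 (0.664) with COX6B2 (0.799). GC content reached 72.0% over the restricted forms and 71.0% over the widely used ones.

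**Figure D3:**
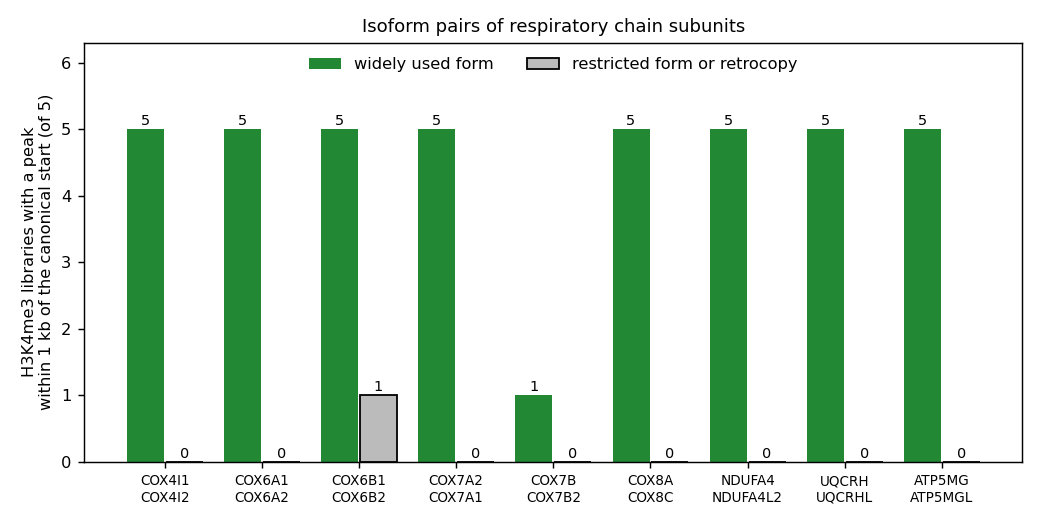
Number of the 5 H3K4me3 libraries with a peak within 1 kb of the canonical start (vertical axis) for each of 9 pairs of a widely used gene (filled green bar, upper name) and its restricted form or retrocopy (grey bar, lower name). The widely used gene has 5 libraries in 8 pairs and 1 in the COX7B pair, and the restricted gene has 0 in 8 pairs and 1 for COX6B2.

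At marked member promoters the summit of the peak often sat at the start itself. Relative to the most 5′ end, the median summit lay downstream, by 22, 39.5 and 33 bp in the control libraries and by 13.5 and 24 bp in the HA-Bcl-xL libraries. Relative to the canonical start it lay upstream instead, at positions -13, -10 and -12 in control and -13 and -13 in HA-Bcl-xL (bp). The same switch was seen over all marked genes. Their medians were 50, 39, 33, 47 and 45 bp at the most 5′ end. At the canonical start they were -5, -9, -13, -4 and -3 bp. The summit was within 100 bp of the canonical start for 61.2, 60.8 and 49.4% of marked members in control and 60.2 and 51.2% in HA-Bcl-xL. Among all marked genes it was 33.1, 33.8 and 35.5% in control and 32.3 and 32.6% in HA-Bcl-xL. Of the 65 members with a peak there in all 5 libraries, 21 had the summit within 100 bp of the start in all 5, 8 had it over 200 bp downstream in all 5, and 0 had it over 200 bp upstream in all 5. For 28 of the 65, the 5 summits lay within 100 bp of each other. The NDUFAF2 summits fell between -109 and -105 bp, and those of NDUFB8 between -52 and -24 bp. COX8A had its summit 423 to 429 bp downstream in all 5 libraries, and NDUFB6, a complex I subunit, 689 to 727 bp downstream.

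**Figure D4:**
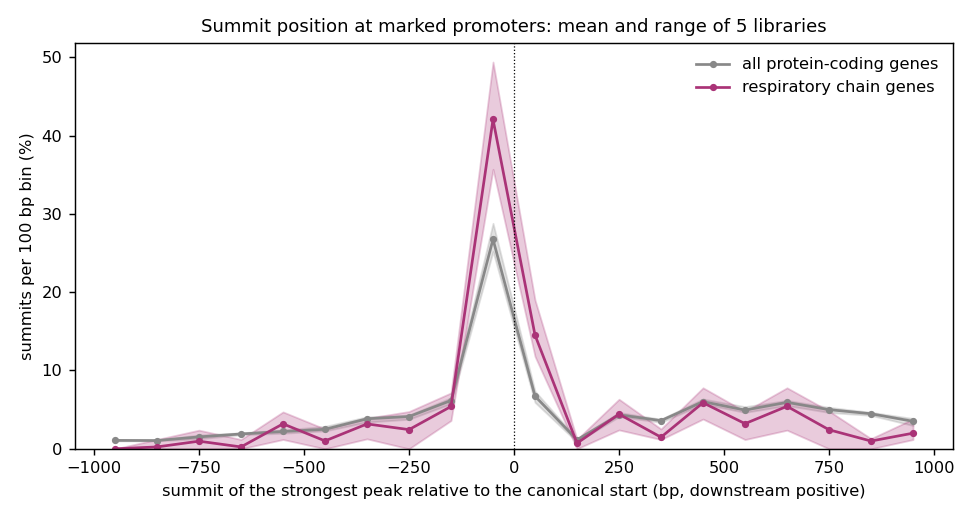
Percent of marked promoters (vertical axis) whose strongest peak has its summit in each 100 bp bin around the canonical start (horizontal axis, bp, downstream positive), for the respiratory chain genes and all protein-coding genes; lines are means and bands the range of the 5 libraries. Both lines peak at the bin just upstream of the start, and the members' line is higher there and in the bin just downstream.

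A minority of the members held NRF1, ETS or YY1 letters, which the choice by symbol did not use. In the 300 bases from 250 before to 50 after the canonical start, NRF1 letters were found in 16 of 100 members (4.26% of all promoters of that length), ETS letters in 14 (6.1%) and YY1 letters in 11 (2.82%). Any of the 3 was found in 34 members, against 12.2% of all promoters and 25.4% of those marked in all 5 libraries. GC boxes (62 members, 61.0% of all promoters), CCAAT boxes (32, 35.9%) and TATA boxes (6, 9.81%) were about as frequent in members as in all promoters or less so. These are matches of letters, and no binding was measured. NRF1 letters occurred in COX5B, COX6A1, SDHB, SDHD, ATP5F1C and ATP5MC2, ETS letters in UQCRH, COX8A and ATP5PD, and YY1 letters in NDUFS4 and UQCRC1, each among others. NDUFA6, NDUFS7, SDHB, SDHD, SDHAF2, COX5B and ATP5PF each held 2 of the 3.

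Whether the motifs went with the calls was not tested. Any of the 3 was present in 33.8% of the 65 members marked in all 5 libraries, in 46.2% of the 26 marked in 1 to 4, and in 0 of the 9 unmarked. Of the 16 members with NRF1 letters, 7 were marked in all 5 libraries and 9 in 1 to 4, where 38.8% of all promoters with these letters were marked in all 5. Of the 14 with ETS letters the counts were 10 and 4 (51.6% of all such promoters in all 5), and of the 11 with YY1 letters 7 and 4 (54.5%). Around the most 5′ end the counts were 16 members for NRF1 (3.76% of all promoters), 11 for ETS (5.07%) and 6 for YY1 (1.87%).

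Promoter base composition was set beside the calls. Median GC content around the most 5′ end was 58.5% in the 58 members marked in all 5 libraries, 66.3% in the 23 marked in 1 to 4 and 56.0% in the 19 unmarked. Around the canonical start the medians were 58.3% in the 65 marked in all 5, 65.3% in the 26 marked in 1 to 4 and 59.7% in the 9 unmarked, so the unmarked members had the lowest median at the most 5′ end alone. All genes were also split by GC content around the most 5′ end into 3 groups of nearly equal size, and the calls there were counted. Of the members with a GC content up to 54.0%, 17 of 27 were marked in all 5 libraries, of those from 54.3 to 65.3%, 33 of 49, and of those from 65.7%, 8 of 24. The corresponding shares of all genes were 12.8, 30.5 and 20.5%. The part that base composition plays in these calls was not tested.

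Many members started near a neighbour on the opposite strand. Such a protein-coding neighbour started within 1 kb, upstream or downstream, of the canonical start of 31 members, against 9.95% of all genes. Of these 31, 23 (74.2%) were marked in all 5 libraries, and of the 69 without a neighbour 42 (60.9%) were. Over all genes the shares were 56.0% with and 19.3% without a neighbour. The neighbour's start lay 135 bp upstream for NDUFAF2 (ERCC8, a DNA repair gene), 62 bp for NDUFAF7 (CEBPZ) and 82 bp for UQCRH (LRRC41). ATP5PF, a peripheral stalk subunit of complex V, started 68 bp from GABPA, itself a regulator of respiratory chain genes. A peak at such a place cannot be assigned to 1 of the 2 genes.

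The count of marked members did not separate the lines. Control libraries had 70.33 ± 4.51 marked members (SD, n = 3) and HA-Bcl-xL libraries 73.5 ± 0.707 (SD, n = 2), a difference of 3.17 that was smaller than the pooled SD of 3.7. Dropping control replicate 1 gave a difference of 5.5 and dropping control replicate 3 gave 1, and a −log10 q of at least 5 gave 5.17. Counts followed list length: the longest control list (17711 peaks) gave 75 members and the shortest (10247) gave 66. With every list cut to its strongest 10247 peaks the difference was 0.333 members. A peak shared by the 2 HA-Bcl-xL lists and absent from control was found for 0 members (0.844% of all genes), and one shared by the 3 control lists and absent from HA-Bcl-xL for 0 (0.248% of all genes). At the canonical start both counts were also 0 (0.973 and 0.233% of all genes). With a −log10 q of at least 5, or with equal list lengths, SDHAF4 became a member with peaks in the control lists alone. Leaving out control replicate 1 made NDUFA12 and UQCRFS1, and leaving out control replicate 3 made NDUFAB1, a member with peaks in HA-Bcl-xL alone. Without HA-Bcl-xL replicate 2, COX6B2 would count for HA-Bcl-xL and ATP5ME for control.

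At the most 5′ end, members with a peak in 4 of the 5 libraries lacked it, with 1 exception, in the 2 shorter control lists. Of 11 members with a peak in 4 libraries, 6 lacked it in control replicate 3 (NDUFA6, NDUFA8, NDUFAF6, NDUFB7, SDHB and COX5B), 4 in control replicate 2 (NDUFA7, UQCR11, UQCRQ and ATP5F1C) and 1, ATP5ME, in HA-Bcl-xL replicate 3. Another 6 had a peak in 3 libraries and 6 in 1. At the canonical start 15 members had a peak in 4 libraries, of which 6 lacked it in control replicate 2, 6 in control replicate 3, 1 in HA-Bcl-xL replicate 2 and 2 in HA-Bcl-xL replicate 3. NDUFA12 had one in control replicate 1 and both HA-Bcl-xL libraries, on 8, 8 and 7 fragments. NDUFAB1, the mitochondrial acyl carrier protein, had one in control replicate 3 and both HA-Bcl-xL libraries, on 9, 12 and 10 fragments. NDUFA1 had one in control replicate 2 alone, on 7 fragments.

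The width of the marked stretch was compared gene by gene. For the 58 members with a peak at the most 5′ end in all 5 libraries, the median number of bases under peaks within 1 kb was 337.5, 215.5 and 197.5 in control and 286.0 and 292.5 in HA-Bcl-xL. These 58 are the members that passed the filter, and the other 42 could not be compared in width. In limma on log2 bases, each library centred on its median, 0 of 4289 genes passed an adjusted p of 0.05 (0%), and 210 (4.9%) had an unadjusted p under 0.05. Among the 58 members 0 passed, 1 had an unadjusted p under 0.05, and the smallest adjusted p in limma was 0.962. The median log2 difference, HA-Bcl-xL minus control, was 0.083 for these members and -0.025 for all genes tested, with 34 members above 0 and 24 below, from -1.12 to 0.86.

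The members with the smallest p are given as values, since none passed. Of the 58 members, 5 had more bases in both HA-Bcl-xL libraries than in every control library (10.6% of the 4289 genes) and 2 had fewer (5.62%). ATP5PO, the stalk subunit that holds the catalytic head, had 357, 263 and 212 bases under peaks in control and 102 and 182 in HA-Bcl-xL. The HA-Bcl-xL values are both lower than in every control library, and the log2 difference was -1.12 (SE 0.417, limma adjusted p = 0.962). SDHAF4 had 120, 119 and 109 bases in control and 74 and 80 in HA-Bcl-xL, also without overlap (log2 difference -0.72, limma adjusted p = 0.982). NDUFA10, a complex I subunit, had 270, 218 and 305 in control and 108 and 245 in HA-Bcl-xL, which overlapped (-0.81 on the log2 scale). This value was -0.17 without HA-Bcl-xL replicate 2, -1.45 without HA-Bcl-xL replicate 3 and -0.29 with equal list lengths. In the other direction NDUFB6 had 527, 144 and 111 in control and 382 and 424 in HA-Bcl-xL, and control replicate 1 stood above both HA-Bcl-xL libraries (0.86 on the log2 scale). The NDUFB6 value was 0.21 at a −log10 q of at least 5, 0.29 with equal list lengths and 1.33 without control replicate 1. ATP5MC1 had 97, 105 and 120 in control and 161 and 249 in HA-Bcl-xL, without overlap (0.78 on the log2 scale). NDUFA11, another complex I subunit, had 302, 105 and 214 in control and 337 and 376 in HA-Bcl-xL, also without overlap (0.78 on the log2 scale).

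**Figure D5:**
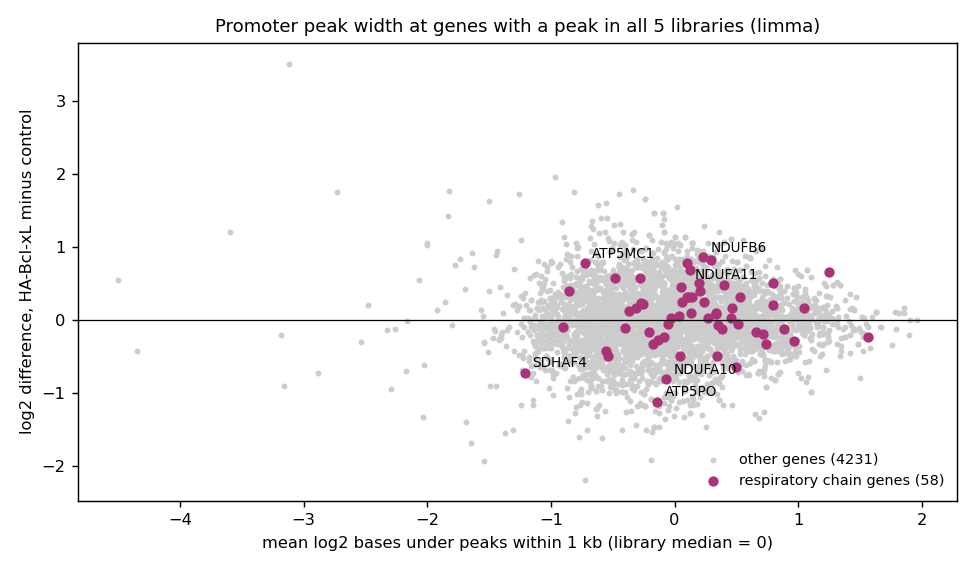
Log2 difference in bases under promoter peaks, HA-Bcl-xL minus control (vertical axis), against the mean log2 bases with each library's median set to 0 (horizontal axis), for the 4289 genes with a promoter peak in all 5 H3K4me3 libraries; the 58 respiratory chain genes are coloured and 6 are named. They lie between -1.12 and 0.86, within the cloud of the other genes, and 0 passed the limma test.

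Other genes of the pathway, which the symbol rule leaves out, were read the same way. Of 53 such genes, 27 had a peak at the most 5′ end in all 5 libraries, 17 in 1 to 4 and 9 in none. The counts were 58, 23 and 19 of the 100 members, and the shares of all genes were 21.3, 26.9 and 51.8%. Among electron carriers, CYCS (cytochrome c) and ETFA were marked in all 5 libraries, while CYC1, the cytochrome c1 subunit of complex III, had no peak at either place. Of 19 complex IV assembly genes 12 were marked in all 5, and SCO2, a copper chaperone, and COA7 had no peak at either place. Of 8 complex I assembly genes 4 and of 6 complex III assembly genes 3 were marked in all 5, while of 3 complex V assembly genes 0 were, with 2 marked in 1 to 4 and ATPAF1 in none. At the canonical start ATPAF1 had a peak in 4 libraries and TMEM70, which had one in 4 libraries at the most 5′ end, had none. NUBPL, an iron-sulfur protein for complex I, had none at its most 5′ end and ranked at 97.1, 99.5 and 96.8 in control and 96.6 and 97.8 in HA-Bcl-xL at its canonical start.

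Among 12 regulators, 6 were marked in all 5 libraries at the most 5′ end (21.3% of all genes). They were GABPA, GABPB1, ESRRA, PPRC1, TFAM and YY1. YY1 lost its peak in all 5 at the canonical start, 846 bp downstream. NRF1 and PPARGC1B had no peak at either place, and the coactivator gene PPARGC1A had one in 2 libraries at its canonical start. POLRMT, the mitochondrial RNA polymerase, had a peak in all 3 control libraries, ranked from 40.4 to 47.4, and in neither HA-Bcl-xL library, a pattern shared by 0.248% of all genes.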

How the data were processed

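H3K4me3 and IgG CUT&RUN libraries of control and HA-Bcl-xL BON1 cells were used, 11 of the 12 labelled samples. The submitters' processing notes name bcl2fastq 2.20, Trimmomatic 0.36, Bowtie2 2.2.9, MACS2 2.1.1, deepTools 3.5.1 and the build hg19, without roles or settings. The deposited files were narrowPeak lists, one per library, so peaks were called per library. The deposited columns are a score, the fold enrichment, the −log10 of the p-value and of the q-value, and the summit, which are the authors' values and served only to rank, filter or describe peaks inside one list. The lowest deposited −log10 q was 2.00 to 2.07. The lists give no read totals.

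The number of fragments at a summit was solved from the deposited fold and −log10 p, taking fold as (n + 1) / (background + 1) and p as a Poisson tail. A whole number within 0.001 in −log10 p was found for 95.9 to 99.97% of peaks per list. These numbers carry counting error, and PCR copies are not separate molecules.

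Promoters came from GENCODE release 44 on GRCh37. The most 5′ end of each gene was used first, and the start of the transcript tagged canonical (280 genes without a tag kept the most 5′ end) was added after seeing the data. Chromosomes 1 to 22, X and Y were used. The test of widths used limma 3.58.1 (R 4.3.3) on log2 bases under peaks, over all genes marked in all 5 H3K4me3 libraries, with Benjamini-Hochberg adjustment, after the step was tested on simulated data. Counts over members were given without a test. The named genes were members with no peak, the 3 highest ranked per complex, those separating the lines, the 3 smallest limma p per direction, and the isoform pairs. Others were named after their values were seen. The members and lists were chosen with earlier results of these data known. The alternatives tried were a minimum −log10 q of 5, lists of equal length, 2.5 kb, any transcript start, IgG peaks removed, other centring, a replicate block and each library left out. Other software was Python 3.11.15 with scipy 1.17.1, numpy 2.4.6, pandas 2.3.3, matplotlib 3.10.9 and pysam 0.24.0. The remaining sample, replicate 1 of HA-Bcl-xL with the H3K4me3 antibody, was not used here. All 100 members enter the counts, and the values of 1 of them are not reported here.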

Additional observations from a re-analysis of the deposited data

How the results depend on the processing

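The count of members marked in all 5 H3K4me3 libraries stayed within 1.5 times its value of 58 under every alternative, from 47 at a −log10 q of at least 5 to 66 with any transcript start, and 58 to 64 with 1 library left out. The difference in marked members per library, HA-Bcl-xL minus control, lay between 0.333 (equal list lengths) and 5.5 (without control replicate 1). Members with a peak in all control and no HA-Bcl-xL library numbered 1 at a −log10 q of at least 5 and 1 with equal list lengths, and 0 to 1 with 1 library left out. Members with a peak in the HA-Bcl-xL and no control library numbered 0 to 2 with 1 library left out. The mean over libraries of the median summit position was 26.4 bp downstream of the most 5′ end, 39.8 bp within 2.5 kb, and -12.2 bp at the canonical start, which measures from another position. For width, 0 members passed limma's adjusted p of 0.05 under any alternative. Over all genes, 0 to 9 passed with 1 library left out (3 without HA-Bcl-xL replicate 2 and 9 without HA-Bcl-xL replicate 3, where the lone library of that line is assumed to vary like the control libraries). With the replicate number as a block, 13 of 4289 genes passed, of which 0 were members. The block rests on 2 same-numbered pairs, whose deviations from the line means had correlations of 0.026 and 0.048. With 2 HA-Bcl-xL libraries these deviations mirror each other. The correlations are therefore not independent and cannot show whether same-numbered libraries belong together, and the cause was not tested. Without centring, the median log2 difference of all genes moved to 0.101 and that of the members to 0.209, with 39 of 58 members above 0. The median called peak rested on 9 to 12 fragments, so an unmarked member is one without a call, not one shown to lack the mark. The part of depth in these counts was not tested, since the lists give no read totals.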

Other observations

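The subunits that the mitochondrial genome itself encodes can be set beside the nuclear members only as background. Mitochondrial DNA carries no nucleosomes, and its peaks numbered 7, 9 and 5 in control and 12 and 11 in HA-Bcl-xL with the H3K4me3 antibody, against 7, 7 and 6 in control and 12, 11 and 11 in HA-Bcl-xL with IgG. The bases under these peaks ranged from 1918 to 3343 with H3K4me3 and from 1993 to 3143 with IgG.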
